A study of Mus musculus with 20 samples.

Results

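DNA methylation in mice that overexpress human α-synuclein was compared between 13 months of age, with 8 libraries, and 3 months of age, with 4 libraries, which are 12 of the 20 libraries of the series. The loci compared were the 1108530 autosomal CpGs listed at both ages, without regard to their values. Chromosome 17, with 52926 of these CpGs, and a stretch of chromosome 9 with 64, listed over chr9:123923604-123933434 (mm10), are described apart, which leaves 1055540 CpGs, called here the rest of the autosomes. The tissue was brain homogenate enriched for microglia, and the assay was bisulfite sequencing of a reduced representation of the genome, in which an enzyme digest selects CpG-rich fragments. The mice, labelled HEM, carried full-length human wild-type α-synuclein under the murine Thy-1 promoter, a promoter used to drive expression mainly in neurons, on the X chromosome of the B6D2F1/J background. The label of the 13-month HEM replicate 3 does not give the background. The series' design text counts 3 WT mice at 3 months, whereas 4 libraries carry that label, and all 4 were used. WT controls of the same background, with 4 libraries at each age, are given beside the HEM values, and the labels give no sex and do not say whether a library pools animals. No transgene was tested here, and the genotype labels were taken as given.

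The deposited values are percent methylation per CpG without read counts, so the depth behind each percentage is unknown and intervals from read counts cannot be given. The libraries of each age list a set of CpGs of their own, 1151247 at 13 months and 1234494 at 3 months, so that age cannot be told apart from the set in which libraries were processed. Mean methylation over the rest of the autosomes was 30.8% ± 0.876 (SD, n = 8) at 13 months and 30.4% ± 0.155 (SD, n = 4) at 3 months, with the 13-month replicate 8 lowest at 29.04%. Mean absolute differences between libraries, over CpGs, were 3.34 to 4.67 points within 13 months, 3.49 to 4.09 points within 3 months and 3.36 to 5.15 points between the ages. The methylation of microglia marker gene regions is described below, and methylation does not give the share of microglia in a library. In such a homogenate a change in the share of a cell type and a change of methylation within it cannot be told apart.

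Methylation of a cytosine followed by a guanine is copied at cell division by maintenance methyltransferases, and most such sites in mammalian genomes are methylated. CpG-rich promoters are mostly unmethylated, and those of developmental transcription factors are held silent in many tissues by polycomb complexes instead. Promoters of this polycomb class are known to gain methylation with age in many mammalian tissues, whereas the genes that give a cell type its identity tend to have low methylation in that cell type.

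The promoter sequences below are of 4 windows that were more methylated at 13 months. The listed CpGs of each changed in one direction together, as they did in every called window. The calls were made on the mean of these CpGs, so this is not separate support. The sequences run 5′ to 3′ on the gene's strand over 300 bases. They extend from 250 bases before to 50 bases after the start of the gene in RefSeq's table (GRCm38.p6, the same coordinates as mm10). Capitals mark the bases with a listed value, on either strand, and a site written CG in capitals is listed on each strand. They are Hoxa5 at chr6:52204538-52204837 on the minus strand with 9 listed bases, Esr1 at chr10:4709908-4710207 on the plus strand with 3, Arhgef18 at chr8:3392758-3393057 on the plus strand with 11, and Paqr6 at chr3:88364339-88364638 on the plus strand with 11. The Esr1, Arhgef18 and Paqr6 windows lie inside the gene's annotated span, and other starts of these genes were not used here.
Hoxa5: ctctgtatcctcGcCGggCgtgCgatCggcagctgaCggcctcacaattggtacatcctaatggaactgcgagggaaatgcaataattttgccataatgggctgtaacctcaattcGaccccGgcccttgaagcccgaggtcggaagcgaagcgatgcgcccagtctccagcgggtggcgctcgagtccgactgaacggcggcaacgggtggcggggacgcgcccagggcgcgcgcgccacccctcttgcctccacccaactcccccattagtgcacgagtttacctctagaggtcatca
Esr1: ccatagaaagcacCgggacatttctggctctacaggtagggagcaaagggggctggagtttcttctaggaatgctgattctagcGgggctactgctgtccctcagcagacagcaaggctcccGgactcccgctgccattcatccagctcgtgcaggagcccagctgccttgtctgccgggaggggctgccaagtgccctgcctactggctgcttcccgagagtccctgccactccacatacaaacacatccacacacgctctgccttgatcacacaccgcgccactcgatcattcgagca
Arhgef18: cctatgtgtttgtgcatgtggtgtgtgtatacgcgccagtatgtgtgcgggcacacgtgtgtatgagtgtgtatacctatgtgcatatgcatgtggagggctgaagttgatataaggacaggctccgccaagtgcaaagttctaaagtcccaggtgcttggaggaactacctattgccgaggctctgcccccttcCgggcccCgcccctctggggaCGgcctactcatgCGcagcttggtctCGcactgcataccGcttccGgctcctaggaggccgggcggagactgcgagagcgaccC
Paqr6: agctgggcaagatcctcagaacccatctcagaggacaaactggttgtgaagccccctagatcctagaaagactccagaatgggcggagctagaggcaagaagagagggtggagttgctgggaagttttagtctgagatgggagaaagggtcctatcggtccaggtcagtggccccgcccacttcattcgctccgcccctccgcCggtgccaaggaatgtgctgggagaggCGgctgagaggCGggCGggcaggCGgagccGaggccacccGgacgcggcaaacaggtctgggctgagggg

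Of the promoter windows with at least 3 listed CpGs in the rest of the autosomes, 810 had a mean between 5% and 95% over the 12 libraries and were tested. At an adjusted p under 0.05 (limma, Benjamini-Hochberg adjustment over all windows tested) and a difference of at least 5 percentage points, 7 were called, which is 0.864% of them, 6 higher and 1 lower at 13 months. In WT limma called 0 of 796 windows (0.0%), with 31 (3.89%) at an unadjusted p under 0.05, against 21.9% in HEM. The WT comparison had fewer libraries and so less power. Counts and shares of the genotypes, here and below, therefore cannot be compared as sizes of effect. Without an adjustment, 132 HEM windows (16.3%) were higher and 45 (5.56%) lower at p under 0.05. Windows with a 3-month mean under 5% passed the filter only through their 13-month values. Among those called these were Arhgef18 at 1.77%, Esr1 at 2.97% and Prrt3 at 4.65%. The excess of higher windows is therefore partly set by the filter.

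Hoxa5 encodes a homeobox transcription factor that patterns the body axis. Its window was at 7.21%, 6.03%, 5.81% and 10.2% in the 3-month libraries and from 11.5% over a median of 14.0% to 24.8% in the 13-month libraries, so the ages did not overlap. The means were 15.6% ± 4.43 (SD, n = 8) and 7.32% ± 2.04 (SD, n = 4), with a log2 difference of 1.12 ± 0.25 (SE) and a limma adjusted p of 0.0434. All 9 listed bases were higher at 13 months, by 4.88 to 10.9 points. In WT the window stood at 11.5% ± 3.83 (SD, n = 4) at 13 months and 10.6% ± 4.13 (SD, n = 4) at 3 months. The window also lies inside the annotated span of Hoxa3 and of the antisense gene Hoxaas3.

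A window inside Hoxa3, at the start of the uncharacterised transcript 5730596B20Rik (chr6:52176905-52177204), rose in the same homeobox cluster. Its 3-month libraries were at 5.37%, 7.27%, 6.15% and 13.2%, and its 13-month libraries ran from 13.0% over a median of 16.6% to 25.7%, so that the highest young library lay above the lowest old one. The difference was 9.25 points with an adjusted p of 0.0383, and in WT it was -0.22 points.

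Esr1 encodes estrogen receptor alpha, a ligand-activated transcription factor. The 3-month libraries were at 3.83%, 2.14%, 4.40% and 1.52% in its window, and the 13-month libraries ran from 4.78% over a median of 8.85% to 14.8%, without overlap. The difference was 6.03 points with a log2 difference of 1.43 ± 0.30 (SE) and a limma adjusted p of 0.0383, against 1.17 points in WT. A single CpG inside the gene, outside that window at position 4712872 of chromosome 10, was called as well and is given with the single CpGs.

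Arhgef18, a guanine nucleotide exchange factor, had the lowest young level of the 4. Its 3-month libraries were at 1.84%, 0.066%, 3.78% and 1.38% and its 13-month libraries ran from 4.46% over a median of 8.29% to 14.9%, without overlap. The difference was 6.99 points (log2 2.04 ± 0.38 SE, limma adjusted p = 0.0225), and all 11 listed bases were higher, by 3.10 to 8.95 points. In WT the difference was 3.63 points, with the 13-month libraries spread from 0.667% to 11.4%.

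Paqr6, of the progestin and adipoQ receptor family, was at 8.67%, 8.32%, 13.4% and 10.8% at 3 months and ran from 12.6% over a median of 21.2% to 25.6% at 13 months. One old library, replicate 3, fell inside the range of the young ones. The difference was 9.92 points (limma adjusted p = 0.0383) against 3.06 points in WT, and all 11 listed bases were higher. The window of Prrt3, a proline-rich transmembrane protein, at chr6:113501769-113502068, rose from 4.65% ± 3.09 (SD, n = 4) to 12.4% ± 2.84 (SD, n = 8), a difference of 7.73 points with a limma adjusted p of 0.0383, and all 9 CpGs were higher.

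Adad2 (chr8:119612463-119612762) was the window that fell. It was at 89.4%, 98.6%, 89.1% and 92.0% at 3 months and ran from 68.4% over a median of 81.5% to 83.0% at 13 months, with no overlap. Its 3 CpGs were lower by 11.1 to 17.6 points, and the mean difference of -13.6 points had a limma adjusted p of 0.0383. The WT libraries were at 75.0% ± 3.41 (SD, n = 4) at 3 months, below the young HEM libraries, and at 77.8% ± 5.63 (SD, n = 4) at 13 months.

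**Figure D1:**
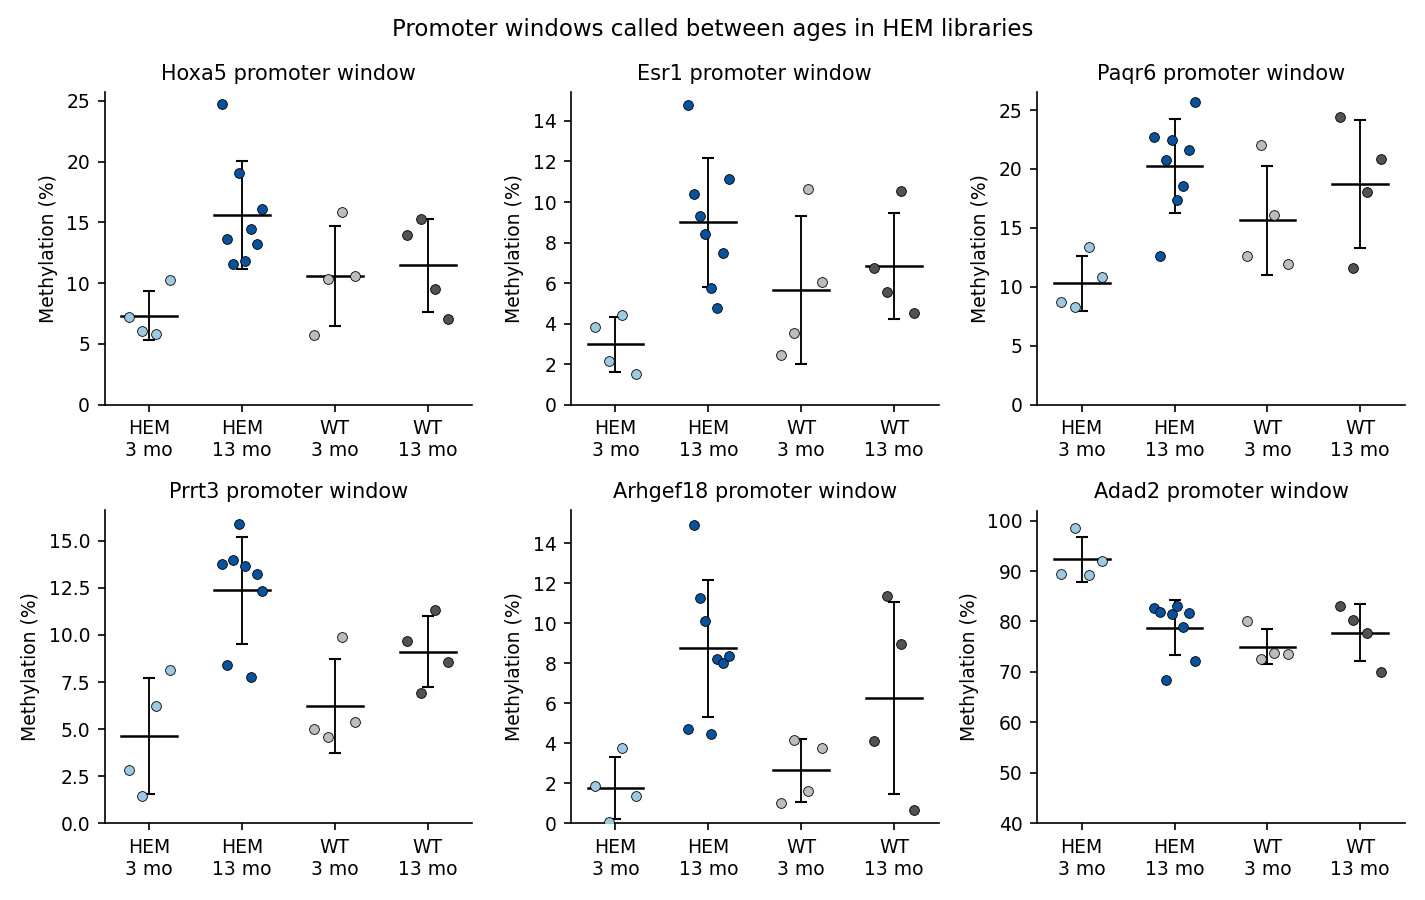
Methylation (percent) of 6 promoter windows called between ages in HEM, by group; each point is 1 library, horizontal lines are means and bars SD, and the Adad2 axis does not start at 0. The 13-month HEM libraries of Hoxa5 lie between 11.5% and 24.8%, above all 4 young HEM libraries, while the WT groups overlap.

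The test of the difference between the genotypes' age differences called 0 of 805 windows (0.0%), with 55 at an unadjusted p under 0.05, and the 7 windows had adjusted p from 0.625 to 0.703 (limma). The number of windows called was 11 without the 13-month replicate 3, 30 without the 13-month replicate 10, 2 without replicate 8, 1 without replicates 1, 6, 7 or 11, and 0 without replicate 13 or without the 3-month replicates 1 or 2, and 8 and 10 without the 3-month replicates 3 and 7. With the mean methylation of microglia marker regions as a covariate, 0 of 810 windows were called, and 0 were called on the percent scale.

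The single CpGs gave 28 calls among 414273 tested in the rest of the autosomes (0.00676%), at an adjusted p under 0.05 (limma) and a difference of at least 10 points, 16 higher and 12 lower at 13 months. Without an adjustment 5.98% of the CpGs tested were higher and 4.37% lower at p under 0.05. The 28 lay on 15 chromosomes, 19 inside a coding gene and 1 in a promoter window. At 3 months 14 of them had a mean under 5% and 10 a mean over 95%. Such CpGs passed the filter on the mean over the 12 libraries only through their 13-month values, so this count is partly set by the filter. The ages did not overlap at any of the 28, against 0.98% of all CpGs tested. CpGs within 100 bp that were not called themselves, 175 in number, moved in the direction of the called one in 90.3% of cases, by a median of 5.71 points against 13.7 points at the called CpGs. These neighbours come from the same libraries, and no such share was taken around uncalled CpGs. The share is therefore not separate support for the calls.

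The CpGs higher at 13 months are given by what their gene or nearest gene is known for, with no test of any such group. At Egr2, a zinc finger factor of the immediate early response and of myelination, a CpG at position 67539150 of chromosome 10 was at 0% in all 4 young libraries and at 2.74% to 27.3%, with a median of 12.5%, in the old ones (limma adjusted p = 0.012). At Foxd2, a forkhead factor, the CpG at 114907336 of chromosome 4 was likewise at 0% in every young library and at 5.79% to 33.3% at 13 months, with a median of 10.3% (limma adjusted p = 0.00621). The CpG near Mycn, a proto-oncogene of the MYC family, was 125196 bp from the gene at 12810897 of chromosome 12. It was at 2.56%, 2.78%, 9.38% and 3.70% in the young libraries, against 18.0% to 43.6% with a median of 25.9% in the old ones. Tcf20, a transcriptional coregulator, had a CpG at 82911628 of chromosome 15 that was at 0.952% ± 1.11 (SD, n = 4) at 3 months and 14.0% ± 4.58 (SD, n = 8) at 13 months. The WT means of the CpGs at Egr2, Foxd2, near Mycn and at Tcf20 were 8.94%, 9.17%, 18.7% and 4.94% at 13 months. At 3 months the WT means of these CpGs were 0%, 9.09%, 16.6% and 5.06%, in the same order.

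Axl, a receptor tyrosine kinase by which phagocytes recognise dying cells, rose at 25788159 of chromosome 7. It was at 2.56%, 2.27%, 7.14% and 6.67% in the young libraries and from 14.3% over a median of 23.6% to 38.0% in the old ones, a difference of 21.0 points (limma adjusted p = 0.0439) against 1.03 points in WT. The WT libraries were at 15.1% ± 12.0 (SD, n = 4) at 13 months and 14.1% ± 3.57 (SD, n = 4) at 3 months, above the young HEM libraries. At Vps35l, of the retriever complex of endosomal recycling, a CpG at 118748073 of chromosome 7 was at 0% in the 4 young libraries and spread from 4.35% to 43.3% in the old ones. In WT it was at 36.5% ± 35.04 (SD, n = 4) at 13 months and 24.3% ± 23.7 (SD, n = 4) at 3 months.

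The largest rise was at Ccdc85c, a coiled-coil protein, at 108219885 of chromosome 12. Its 3-month libraries were at 28.4%, 35.1%, 32.2% and 34.9% and its 13-month libraries ran from 52.8% over a median of 67.5% to 72.0%, a difference of 32.7 points (limma adjusted p = 0.048). In WT it was at 63.2% ± 9.77 (SD, n = 4) and 49.7% ± 10.6 (SD, n = 4). The smallest adjusted p of all 28 was at Pcmtd1, at 7105185 of chromosome 1, with 0% in all young HEM libraries and 8.33% to 30% in the old ones (adjusted p = 0.00016, limma). The WT libraries there were at 14.6% ± 5.86 (SD, n = 4) at 13 months and 8.02% ± 3.74 (SD, n = 4) at 3 months. Pom121l2, a nucleoporin-like gene, at 21981981 of chromosome 13 rose by 19.6 points in HEM and differed by 15.2 points in WT. Fbrsl1, at 110363273 of chromosome 5, rose by 15.1 points, with -4.18 points in WT.

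Of the 12 lower CpGs, the 2 largest were outside coding genes. One inside the long noncoding RNA gene Lncpint, at 31209582 of chromosome 6, was at 83.3%, 86.8%, 86.0% and 76.2% in the young libraries and from 20.4% over a median of 41.1% to 62.7% in the old ones, a difference of -41.6 points (limma adjusted p = 0.0303). The other, 207372 bp from the olfactory receptor gene Olfr161, at 3385026 of chromosome 16, fell from 88.3% ± 7.30 (SD, n = 4) to 52.1% ± 4.52 (SD, n = 8). The WT differences at these were -8.21 and -2.79 points. A CpG in Gm40063, at 62879372 of chromosome 3, fell by 24.1 points. A CpG 4101 bp from Daw1, at 83214678 of chromosome 1, fell by 16.8 points.

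The lower CpGs inside coding genes were at Fam50b, Zbtb38, Uggt1, Acsl1, Cmc2, Sucla2 and Ggta1. Zbtb38, a zinc finger protein that binds methylated CpGs, was at 98.7%, 100%, 98.0% and 100% in the young libraries at 96686796 of chromosome 9, and at 72.5% to 92.4% with a median of 87.9% in the old ones. The WT libraries there were at 92.5% ± 12.3 (SD, n = 4) at 13 months and 91.5% ± 7.65 (SD, n = 4) at 3 months. Acsl1, an acyl-CoA synthetase for long-chain fatty acids, fell by 11.8 points at 46534362 of chromosome 8. Uggt1, which tests the folding of glycoproteins in the endoplasmic reticulum, fell by 13.2 points at 36233514 of chromosome 1, and Fam50b by 20.3 points at 34747213 of chromosome 13. Cmc2, an assembly factor of cytochrome c oxidase, fell by 11.8 points at 116906246 of chromosome 8. A CpG of the noncoding gene D130009I18Rik, at 104715795 of chromosome 14, fell by 11.9 points.

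The calls beyond the 10 of largest difference in a direction are named here after their values were seen. They were higher 781260 bp from Tenm4, in Nes, which encodes the progenitor filament protein nestin, and in the nuclear factor gene Nfix. They were also higher 4356 bp from the serotonin receptor gene Htr1d, in Esr1 and in Mir9-3hg, a host gene of the neural microRNA miR-9. They were lower in Sucla2, a subunit of succinyl-CoA ligase, and in Ggta1, a galactosyltransferase. The Esr1 CpG was at 0%, 0%, 0% and 3.57% at 3 months and from 5.56% over a median of 12.3% to 22.6% at 13 months, a difference of 10.8 points (limma adjusted p = 0.0312). Ggta1, at 35447457 of chromosome 2, was at 100% in all 4 young libraries and at 79.2% to 96.6% in the old ones. The WT means were 3.23% at 13 months and 5.43% at 3 months at the Esr1 CpG, and 95.9% and 97.1% at Ggta1.

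**Figure D2:**
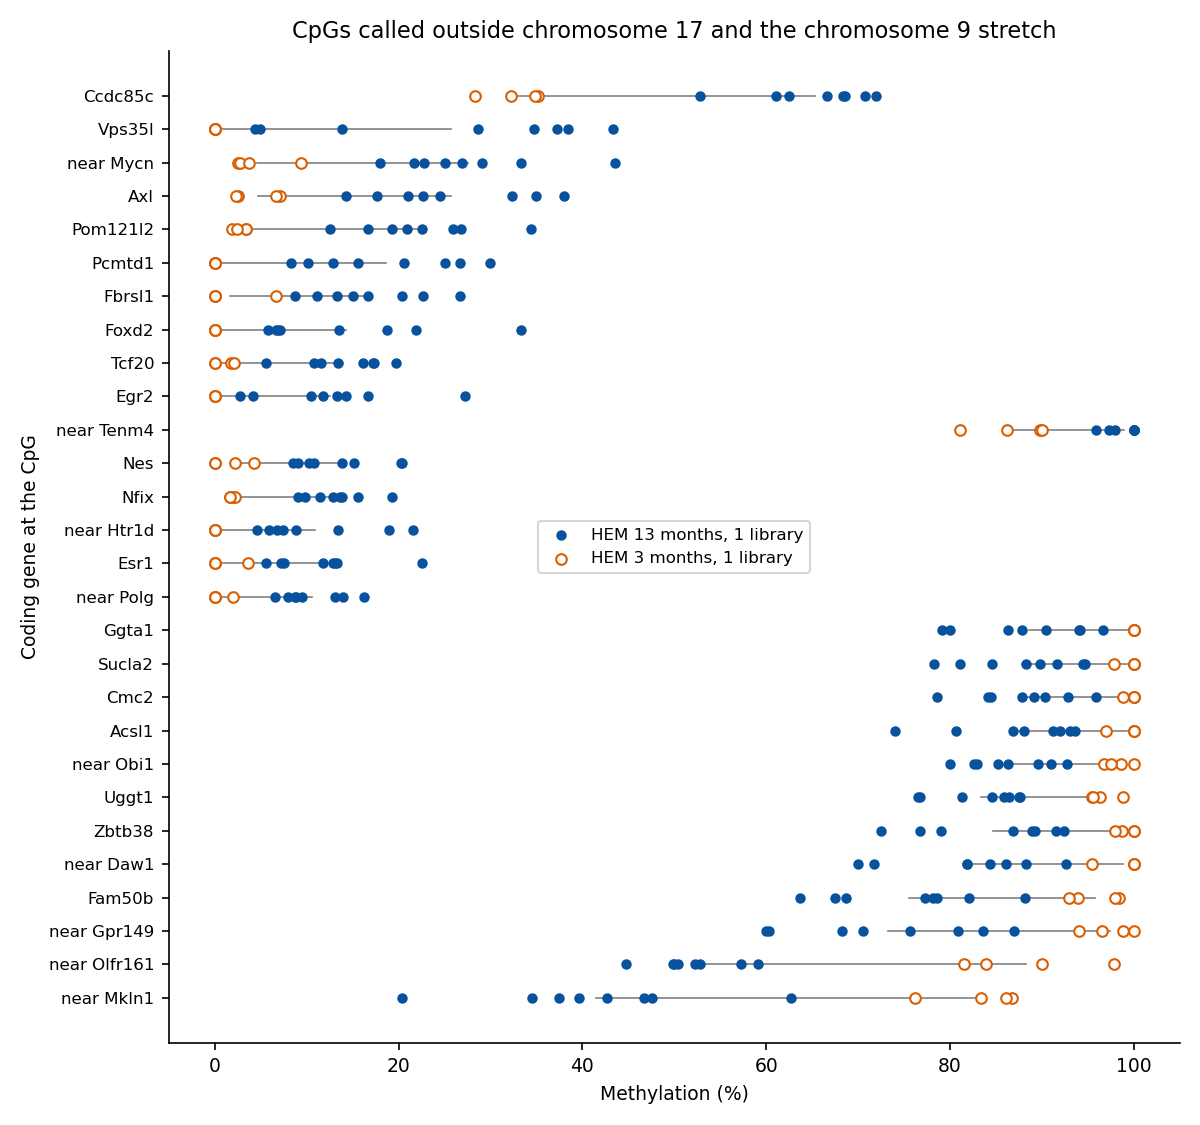
Methylation (percent, horizontal axis) at the 28 CpGs called between ages in HEM in the rest of the autosomes, 1 row per CpG named by the coding gene it lies in or the nearest one; filled points are 13-month and open points 3-month libraries, and grey lines join the group means. At 14 CpGs the young mean is under 5% and at 10 over 95%, and no row has overlapping ages.

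In WT, 22 of the 28 CpGs had a difference in the same direction. Over all 28 the median size was 3.22 points in WT against 13.7 points in HEM, on whose values they were called. In WT 0 of them were called, but the CpGs at Tcf20, Egr2, Esr1, Cmc2, Sucla2, Ggta1 and nearest to Tenm4 were not tested there. The same test in WT called 22 of 411150 CpGs (0.00535%). In the test of the difference between the genotypes' age differences, the 27 that could be tested had adjusted p from 0.566 to 0.947 (limma), and 1 other CpG of the rest was called (0.000241% of 414993). With each library left out in turn, 6 calls held in all 12 fits, at Pom121l2, Pcmtd1, Ggta1, Foxd2, Cmc2 and Nfix, and that at Uggt1 in none. The count rose to 74 without the 3-month replicate 3 and to 62 without the 3-month replicate 7. It was 8 when only the rest of the autosomes entered the fit and the adjustment, and 11 with microglia marker methylation as a covariate.

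The homeobox clusters, whose genes set position along the body axis and are classic polycomb targets, were higher at 13 months in all 39 of their measured gene regions, by a median of 1.04 points. A gene region is a gene with 1000 bp on either side and at least 3 listed CpGs, and over all 15259 measured coding gene regions of the rest 65.4% were higher, by a median of 0.146 points. Of the 39, 11 had a mean high enough to be tested and 9 of these had an unadjusted p under 0.05, all higher, against 9.69% higher and 3.58% lower of the 11388 gene regions tested (0.0% called). Most of the 11 tested had a 3-month mean under 5% and passed the filter only through their 13-month values. They were Hoxb4 at 3.49%, Hoxa2 at 3.92%, Hoxa5 at 4.26%, Hoxa6 at 4.37%, Hoxd3 at 4.54%, Hoxb5 at 4.80% and Hoxa3 at 4.80%. All of these but Hoxb5 are among the 9. The count of tested regions and their direction are therefore largely set by the filter, which was applied to every list. The 9 of 11 are not separate support for a rise. No homeobox gene region was called. The list and its direction were chosen with earlier results of these data known.

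Averaged over the 39 regions, homeobox methylation was 2.89%, 2.64%, 3.32% and 3.42% in the young HEM libraries and ran from 3.45% over a median of 4.85% to 5.81% in the old ones. The ages did not overlap, although the lowest old library, replicate 10, was at 3.45% and the highest young one at 3.42%. WT libraries were at 3.27% to 4.69% at 13 months and 3.25% to 3.87% at 3 months, with 33 of the 39 regions higher and a median difference of 0.448 points. With every library centred on its own mean, 34 of the 39 were higher in HEM (87.2% in place of 100%), by a median of 0.594 points, while 36.9% of all coding gene regions were higher, with a median of -0.133 points. Centring takes the same number of points from every region of a library. Between the ages the rest of the autosomes differed by 0.439 points, but CpGs with a mean under 5% by 0.135 points. Centring can therefore turn small differences at low levels by itself, and counts after centring do not settle direction there.

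By cluster, the median difference was 0.735 points over 11 Hoxa genes on chromosome 6, 0.913 points over 10 Hoxb genes on chromosome 11, 0.990 points over 9 Hoxc genes on chromosome 15 and 1.21 points over 9 Hoxd genes on chromosome 2. Differences within a cluster were uneven, since Hoxa5 differed by 6.77 points and Hoxa9 by 0.079 points. The regions of largest difference after Hoxa5 were Hoxa6 at 5.43 points, Hoxd4 at 4.96 points, Hoxb3 at 4.55 points and Hoxa3 at 4.35 points. Hoxa3 was at 9.15% ± 2.72 (SD, n = 8) at 13 months and 4.80% ± 0.922 (SD, n = 4) at 3 months, with a limma adjusted p of 0.214, and Hoxa6 had an adjusted p of 0.215. Regions of neighbouring homeobox genes share CpGs, so their differences are not separate observations.

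Developmental transcription factors outside these clusters, such as those of the PAX, GATA and TBX families, were counted in the same way. Of 105 measured regions 97 were higher at 13 months and 8 lower, by a median of 0.640 points, and 14 of the 31 tested had an unadjusted p under 0.05, all higher. Wt1, a zinc finger factor of kidney and gonad development, had the smallest p, at 15.0% ± 0.525 (SD, n = 8) against 13.4% ± 0.375 (SD, n = 4), with a limma adjusted p of 0.132. Cdx1, a caudal-type homeobox factor, was at 23.0% ± 1.09 (SD, n = 8) against 20.3% ± 1.35 (SD, n = 4), with an adjusted p of 0.231. The list mean ran from 4.52% to 5.57% at 13 months and from 4.33% to 4.59% at 3 months, and 91 of the 105 were higher in WT. After centring, 68 were higher and 37 lower, or 64.8% in place of 92.4%.

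The microglia marker regions lay the other way, with 14 of 18 lower at 13 months and a median difference of -4.63 points. None was called, nor was any of the 11388 gene regions tested. Csf1r, the receptor for the growth factor on which microglia depend, averaged 61.4% ± 10.02 (SD, n = 8) at 13 months and 73.1% ± 7.93 (SD, n = 4) at 3 months. Tmem119, a homeostatic microglia marker, averaged 58.8% ± 7.05 (SD, n = 8) and 66.0% ± 3.86 (SD, n = 4). Irf8 and Spi1, transcription factors of the myeloid lineage, had the smallest unadjusted p of the lower members. Irf8 was at 38.2% ± 3.78 (SD, n = 8) against 44.0% ± 2.84 (SD, n = 4) with a limma adjusted p of 0.312, and Spi1 at 44.3% ± 8.64 (SD, n = 8) against 55.3% ± 7.90 (SD, n = 4) with 0.354. The purinergic receptor gene P2ry12 differed by -4.83 points, the fractalkine receptor gene Cx3cr1 by -4.20 points and the complement genes C1qa and C1qc by -7.02 and -11.3 points, while Mertk, Olfml3, Slc2a5 and Itgam were higher by at most 2.11 points. Of the 17 members tested, 1 higher and 4 lower had an unadjusted p under 0.05.

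The level of this list differed among libraries of one age. The mean over the 18 regions was 54.3%, 53.0%, 47.7% and 47.7% in the young libraries and ran from 39.9% over a median of 45.8% to 52.9% in the old ones. The 13-month replicates 1, 3 and 10 were at 47.9%, 52.0% and 52.9%, inside the young range, and their homeobox means were 5.81%, 4.36% and 3.45%. In WT 14 of the 18 were lower as well, with a median of -0.844 points. The part of the microglia marker level in the other differences was not tested beyond the covariate fits given with the promoter windows and CpGs.

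**Figure D3:**
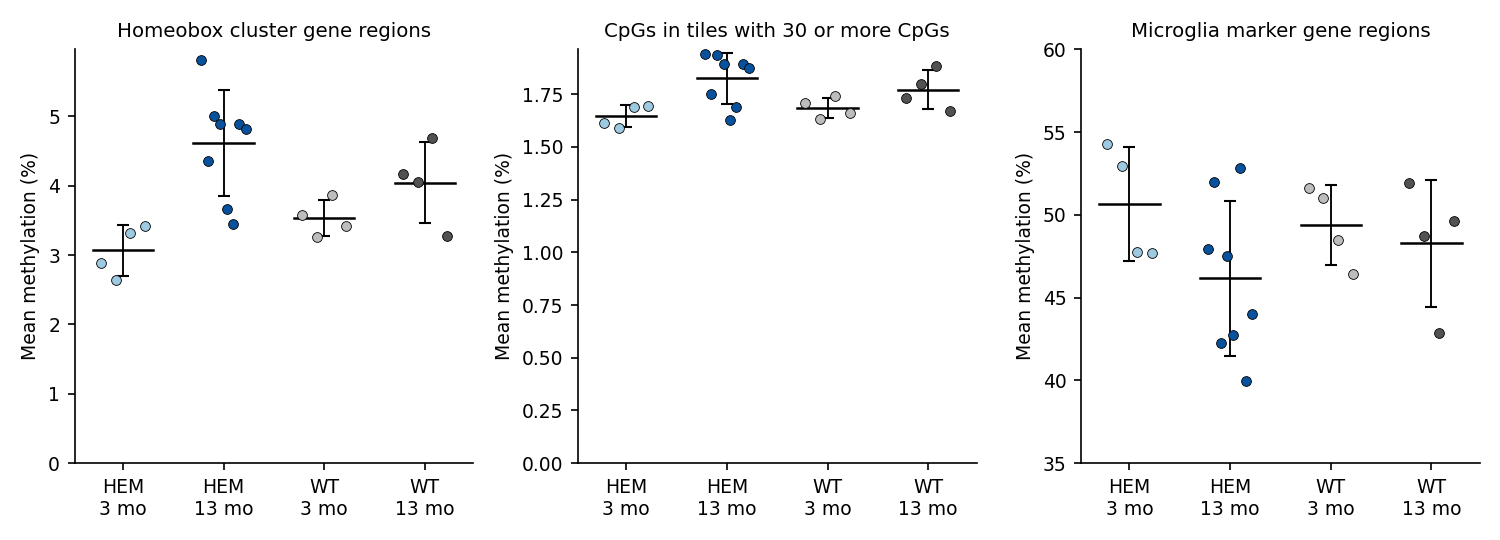
Mean methylation (percent) of the homeobox cluster gene regions, of CpGs in 1000 bp tiles with 30 or more listed CpGs, and of microglia marker gene regions, by group; points are libraries, lines means and bars SD, and the microglia axis does not start at 0. Homeobox means of HEM lie at 2.64% to 3.42% at 3 months and 3.45% to 5.81% at 13 months, and microglia marker means overlap between ages.

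Markers of the other cell types that a brain homogenate holds were mixed, where 65.4% of all coding gene regions were higher (36.9% after centring). Neuron markers were higher in 18 of 19 regions by a median of 0.562 points, but in 11 of 19 (57.9% in place of 94.7%) after centring, and in 10 of 19 in WT. Dlg4, a scaffold of the excitatory synapse, had the smallest p of that list, at 53.0% ± 3.57 (SD, n = 8) against 48.6% ± 0.874 (SD, n = 4), and Rbfox3, which encodes the neuronal nuclear antigen, differed by 1.78 points. Astrocyte markers were higher in 8 of 11 regions, and in 5 of 11 after centring. Aqp4, the astrocyte water channel, was at 43.5% ± 6.997 (SD, n = 8) against 32.4% ± 5.28 (SD, n = 4), with a limma adjusted p of 0.297, and Aldoc differed by 1.98 points. Oligodendrocyte lineage markers were higher in 11 of 13 (8 after centring), with the lineage factor Sox10 at 2.37 points and the myelin gene regulator Myrf at 2.71 points. Vessel markers were higher in 7 of 11 (6 after centring), with Cldn5, a tight junction protein of endothelium, at 1.25 points and Kdr, the VEGF receptor, at 4.11 points. Markers of leukocytes and border macrophages were lower in 8 of 11, by a median of -2.59 points, against 3 lower in WT, and the chemokine receptor gene Ccr7 and the chemokine gene Pf4 differed by -5.005 and -7.86 points. No member of these lists was called, nor was any of the 11388 gene regions tested.

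Genes of immune response were not uniform, where 65.4% of all coding gene regions were higher (36.9% after centring). Cytokine and innate immune genes were lower in 16 of 26 regions (20 after centring), by a median of -0.232 points, while Tgfb1, an anti-inflammatory cytokine gene, and Relb, of the NF-κB family, differed by 2.03 and 1.23 points. Interferon and MHC genes were higher in 12 of 19 (6 after centring), and Cd74, the invariant chain of antigen presentation, was at 59.2% ± 9.49 (SD, n = 8) against 71.7% ± 7.64 (SD, n = 4), with a limma adjusted p of 0.342. Stat2 differed by 4.83 points. Disease-associated microglia genes were higher in 9 of 16 (7 after centring), with Spp1, which encodes osteopontin, at -6.12 points and Itgax at 3.56 points.

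No tested region of a gene tied to Parkinson disease or to the handling of α-synuclein was called, nor was any of the 11388 gene regions tested. Over all coding gene regions 65.4% were higher, and 36.9% after centring. Familial Parkinson disease genes were higher in 15 of 21 regions (9 after centring), by a median of 0.217 points, and Fbxo7 and Tmem175 differed by 0.949 and 5.82 points, against -0.044 and -11.5 points in WT. Lysosome and autophagy genes were higher in 15 of 23 (8 after centring), and Ctsd, the lysosomal protease cathepsin D, and Atp6v0d1, of the proton pump, differed by -0.60 and 0.641 points. Oxidative stress genes were higher in 12 of 21 (5 after centring). Cat, which encodes catalase, was at 61.6% ± 1.56 (SD, n = 8) against 65.1% ± 0.971 (SD, n = 4) with a limma adjusted p of 0.216, and Prdx5 differed by 0.685 points. Synapse and dopamine genes were higher in 20 of 28 (14 after centring), with Lmx1b, a factor of dopamine neuron development, at 1.70 points.

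Lists built around ageing and methylation itself had no called member, where 0 of all 11388 gene regions tested were called. Over all coding gene regions 65.4% were higher, and 36.9% after centring. Loci of published age predictors were higher in 11 of 19 regions (8 after centring) and in 16 of 19 in WT, with Hsf4 at 2.41 points and Fhl2 at 1.195 points. Senescence and cell cycle genes were higher in 7 of 13 (1 after centring), with Ccnd2 at -1.91 points and Lmnb1 at 0.289 points. Writers, erasers and readers of methylation were higher in 13 of 18 (4 after centring), with Tet2 and Dnmt1 at 0.905 and 0.914 points. Imprinted genes, methylated on one parental copy, were higher in 12 of 26 (5 after centring) with a median of -0.051 points, and Mkrn3 and Igf2 differed by -2.83 and 0.326 points. An unadjusted p under 0.05 was reached by 3 of the 16 age predictor loci tested and by 0 of the tested members of the other 3 lists.

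**Figure D4:**
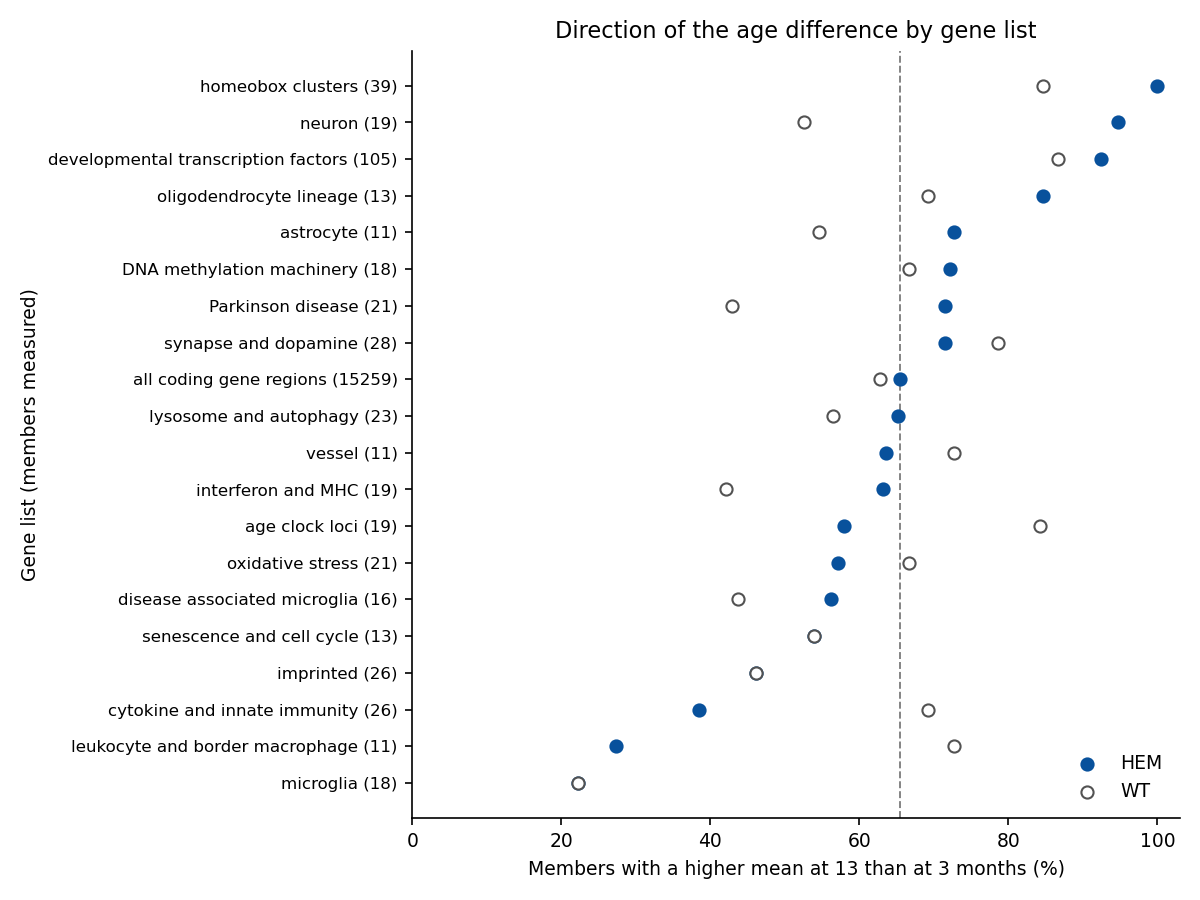
Share of measured gene regions with a higher mean at 13 than at 3 months (percent) for each gene list, in HEM (filled) and WT (open), with the number of regions in brackets; the dashed line is all coding gene regions in HEM, at 65.4%. The homeobox list stands at 100% in HEM and the microglia list at 22.2%; after centring of libraries the line itself falls to 36.9%.

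Averages over larger units gave no call in the rest of the autosomes. Of 65195 tiles of 1000 bp with at least 3 CpGs, 0 were called (0.0%) by limma, with 8.32% higher and 5.17% lower at an unadjusted p under 0.05 and 1 called on the percent scale. In WT 1 of 65123 tiles was called (0.00154%), with 4.92% at an unadjusted p under 0.05. On chromosome 17 2 of 3236 HEM tiles were called (0.0618%). In the rest of the autosomes the smallest adjusted p in HEM was 0.0978. Among its tiles of smallest p, 1 in Plcb2, a phospholipase C, was at 2.71%, 3.11%, 2.96% and 3.65% in the young libraries and from 8.13% over a median of 11.4% to 21.1% in the old ones. Tiles in Diaph1, Vstm4 and Arhgef18 and near Rgs8 were higher by 7.29, 21.6, 7.18 and 12.4 points, with adjusted p from 0.0978 to 0.138. Lower were tiles in Pdk1, a kinase that inhibits pyruvate dehydrogenase, with 63.3% ± 10.95 (SD, n = 8) against 92.2% ± 6.07 (SD, n = 4), and in Zfhx3, Chst11, D130009I18Rik and the predicted genes Gm26650 and Gm3264. Zfhx3 and Chst11 differed by -18.4 and -11.7 points.

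Of 11388 gene regions tested limma called 0 in HEM, with 1511 at an unadjusted p under 0.05 (13.3%, against 4.39% in WT, which had fewer libraries) and 0 called on the percent scale. The test of the difference between the genotypes' age differences called 0 of 11391 gene regions, with 566 at an unadjusted p under 0.05 (limma). The 5 of smallest p among the higher were Rnf112, Dpysl4, Zcchc3, Cacng6 and Cabp2. Rnf112, a brain RING finger gene, was at 51.7%, 56.2%, 53.7% and 51.3% in the young libraries and from 57.9% over a median of 59.7% to 61.4% in the old ones, with a limma adjusted p of 0.0666. Among the lower were Iho1, a factor of meiotic recombination, with -7.90 points, Gm26650 and Gm3264 with -8.86 and -10.1 points, and the histone genes H2ac1 and H2bc1 with -8.27 points each. H2ac1 and H2bc1 share their listed CpGs, and Gm26650 overlaps several similar predicted genes, so these values are uncertain as to the gene.

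Whole-library means differed by less than the spread at 13 months. The rest of the autosomes was higher by 0.439 points at 13 months (two-sided exact permutation p = 0.354, where the smallest p this design allows is 0.00202). Without the 13-month replicate 8 the difference was 0.688 points with an exact permutation p of 0.0364. By CpG density, CpGs in tiles with 30 or more listed CpGs were at 1.83% ± 0.120 (SD, n = 8) against 1.65% ± 0.053 (SD, n = 4), with an exact permutation p of 0.0222 and an adjusted p of 0.133 over 6 contexts. Less dense tiles, gene bodies, gene ends and intergenic CpGs had adjusted p from 0.370 to 0.541. CpGs with a mean under 5% over the 12 libraries were at 0.568% ± 0.069 (SD, n = 8) against 0.434% ± 0.030 (SD, n = 4), with an exact permutation p of 0.0101 and an adjusted p of 0.0707 over the level classes. Differences by chromosome ran from 0.325 points on chromosome 16 to 0.547 points on chromosome 5, with adjusted exact permutation p from 0.480 to 0.501.

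Chromosome 17 held 98 called CpGs of 21704 tested (0.452%), 89 higher and 9 lower, by a median of 50.2 points. Over the 89, the median level was 0% in each of the 4 young HEM libraries, 80% and 80.5% in the 13-month replicates 3 and 8, and 39.8% to 43.1% in the other old ones. The old libraries stood at 2 levels, with no library between 43.1% and 80%. In WT the same CpGs had medians of 0% in the 4 young libraries and of 40.9%, 83.0%, 0% and 84.6% at 13 months, and 4 of 21584 CpGs were called (0.0185%). The 3 largest were in the olfactory receptor gene Olfr91, in Nudt3, a diphosphoinositol polyphosphate phosphohydrolase, and 1054 bp from Frs3, with 72.9, 69.3 and 65.2 points. Lower were CpGs near Psmb9, an immunoproteasome subunit, in Prkce, a protein kinase C, and in Rsph3b, with -36.9, -26.1 and -20.2 points, and the Rsph3b call was lost in 11 of 12 fits with a library left out. The 316 uncalled neighbours within 100 bp moved in the same direction in 60.8% of cases, by a median of 3.59 points, against 90.3% and 5.71 points in the rest.

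**Figure D5:**
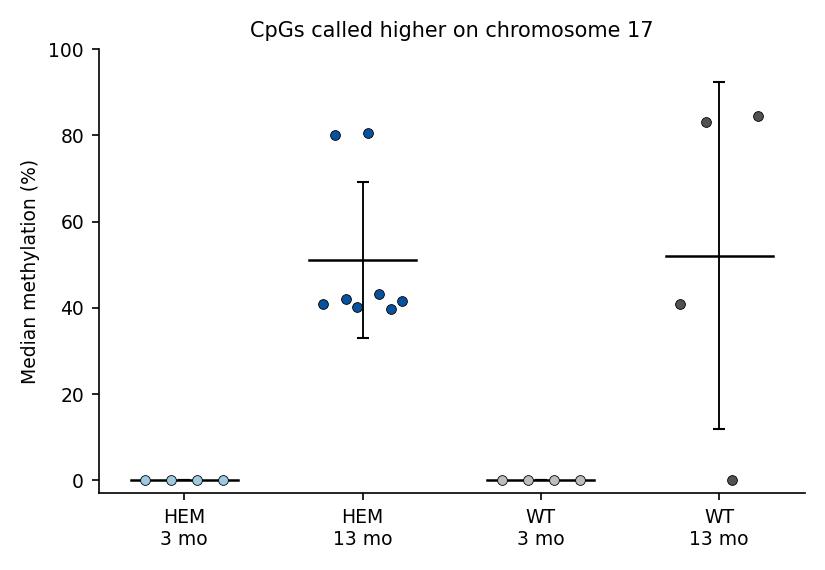
Median methylation (percent) per library over the 89 CpGs called higher on chromosome 17, by group; points are libraries, lines means and bars SD. Both 3-month groups are at 0%, and the 13-month libraries stand near 40% or 80% except 1 WT library at 0%.

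The chromosome 9 stretch lies 37397 bp from the chemokine receptor gene Ccr1 at its CpG of largest difference. Its mean over 64 CpGs was 9.88% to 12.3% in the young HEM libraries and ran from 12.4% over a median of 55.2% to 59.4% in the old ones, against 8.81% to 11.8% and 46.2% to 64.3% in WT. Of 63 CpGs tested 8 were called in HEM (12.7%), all higher, and 55 of 64 in WT (85.9%). At the CpG of largest difference, at 123924729, the 13-month replicate 10 was at 1.32% while the old median was 78.1%, and without that library 52 were called, against 2 to 6 without each of the others. The promoter window of the predicted gene Gm51701 (chr9:123924898-123925197) was at 0%, 0%, 0.385% and 0.486% in the young libraries and from 0.833% over a median of 43.1% to 52.4% in the old ones. It differed by 34.5 points in HEM (limma adjusted p = 0.0144) and by 41.3 points in WT.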

How the data were processed

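Bisulfite libraries of the 20 samples were analysed as the deposited percent methylation per CpG. Per the submitters' processing notes the tools were Bowtie2 and methylKit and the genome mm10; versions and filters are not given in the sources used here. The deposited percent values carry no read counts, so count tests and depth weights could not be used. Groups came from the labels, and nothing says which libraries share an animal or litter, so p-values measure the spread between these libraries. CpGs listed by every library at both ages were kept, each strand apart. The 8 and 4 HEM libraries were compared by limma 3.58.1 (R 4.3.3), after each percentage was turned into log2((percent + 1) / (100 - percent + 1)). Tested were features of the 19 autosomes and of X and Y whose mean over the libraries lay within 5% and 95%, with Benjamini-Hochberg adjustment over all of them, and no library was dropped. Log2 differences with their SE are from that fit, and differences in points are between group means of the percentages.

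A call was an adjusted p below 0.05 together with a difference of at least 10 percentage points (single CpGs) or 5 (tiles, coding gene regions and promoter windows, each holding 3 CpGs or more). Interactions needed an adjusted p under 0.05 in a fit of all 20 libraries. Genes and promoter windows were taken from RefSeq tables of GRCm38.p6, in whose sequence 100% of the 167784 listed positions inside promoter windows were C or G. Exons, introns and UTRs were not annotated here. Library means were tested by exact permutation, two-sided. The model was tested on simulated data. The members and gene lists were chosen with earlier results of these data known, and promoter windows were added after the data were seen.

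Named loci were, in the rest of the autosomes, the 10 calls of largest difference per direction, 3 on chromosome 17 and in the chromosome 9 stretch, and the 5 called tiles or, failing these, the 5 tiles of smallest p. They were also the 5 gene regions of smallest p in each direction, and the called members and the 2 of smallest p of each gene list, of which 1 is not reported here. Every called promoter window and every other called CpG, and further homeobox and microglia genes, were named after their values were seen. Alternatives covered the scale, offset, mean filter, variance model, library centring, a covariate, a replicate block, the libraries and features in the fit, the minimum difference, tile size and each library left out. The series' tables of all libraries were not used.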

Additional observations from a re-analysis of the deposited data

Results flagged for a closer look

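Single libraries stood apart from the rest of their group at 16 of 216 groups of values (7.41%), where chance marks about 1 in 20. At 3 months these were replicate 3 at the CpG near Mycn (9.38% against 2.56% to 3.70%), replicate 7 at Fbrsl1 (6.67% against 0%), replicate 7 at the Esr1 CpG (3.57% against 0%) and replicate 3 at Mir9-3hg (2% against 0%). Near full methylation they were replicate 3 near Daw1 (95.5%), replicate 3 at Acsl1 (97.0%), replicate 1 at Cmc2 (98.8%) and replicate 2 at Sucla2 (97.9%), each against 100% in the others. Apart from the rest of the autosomes they were replicate 1 at Olfr91 (1.22% against 0%) and replicate 3 at the CpG at 123924652 of chromosome 9 (2.19% against 0%). A group with 3 libraries at 0% or 100% marks the remaining library at any other value.

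At 13 months replicate 1 was marked at the Esr1 CpG (22.6% against 5.56% to 13.3%) and in the 5730596B20Rik promoter window (25.7% against 13.0% to 18.8%). Replicate 11 was marked at Rsph3b (15.2% against 0%), in the tile and gene region of Gm3264, which hold the same CpGs (7.001% against 1.69% to 3.90%), and in the overlapping region of Gm26650 (12.0% against 6.65% to 8.47%).

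The age difference differed between genotypes at a CpG 12942 bp from Zfhx2, at position 55047326 of chromosome 14. It was 93.7% ± 3.16 (SD, n = 8) against 97.8% ± 0.466 (SD, n = 4) in HEM and 100% in all 13-month against 88.1% ± 6.54 (SD, n = 4) in the 3-month WT libraries, so the HEM difference minus the WT difference was -16.1 points (adjusted p = 0.0304, limma).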

How the results depend on the processing

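No named CpG, tile, gene region, promoter window or mean of the rest of the autosomes changed sign under the alternatives run, whereas centring turned the majority of all coding gene regions from higher to lower (65.4% to 36.9% higher), and that of several gene lists, as given with each list. Centring takes the same points from low and high regions of a library, so it can turn small differences at low levels by itself. CpG calls in the rest of the autosomes, 28 in the report, numbered 6 on the percent scale, 16 with each CpG's own variance, 46 with libraries centred, 11 with the microglia covariate, 8 when only the rest was fitted, 51 with no minimum difference and 8 with a minimum of 20 points. With a library left out they ran from 22 to 74. On the percent scale chromosome 17 kept 14 calls, the stretch 0 and the interaction 0, and with a library left out the stretch ran from 2 to 52 and the interaction from 0 to 2. Tiles gave 1 call on the percent scale and 2 with all 20 libraries in the fit (0 to 3 with a library left out: 3 without the 13-month replicate 10, 1 without replicate 8 or 11). Gene regions gave 4 with no mean filter and 1 with centring (0 to 3 with a library left out: 3 without the 13-month replicate 11, 1 without the 3-month replicate 2). Promoter calls, 7 in the report, were 0 on the percent scale, with no mean filter, with means of 10% to 90%, with own variances and with the covariate, 2 with an offset of 5 or with centring, and 14 with all 20 libraries, and ran from 0 to 30 with a library left out. The difference of the rest of the autosomes ran from 0.298 to 0.688 points, and passed the exact permutation test without the 13-month replicate 8 (p = 0.0364). The causes of these shifts were not tested. Same-numbered libraries did not deviate together (correlations of 0.033, -0.15 and -0.016). No correlations were taken for differently numbered libraries, so whether a number stands for a shared litter or batch is not settled. With a replicate block over the 3 shared numbers, 0 CpGs and 0 promoter windows of the rest of the autosomes were called. These fits held only the HEM libraries of the 3 shared numbers and so had less power. The mean difference over these libraries was 0.656 points (p = 0.25, exact permutation). With 3 pairs 0.25 is the smallest p possible, so this test cannot decide whether the ages differ. With the depth unknown, how many reads stand behind a level of 0% or 100% at a single CpG is not known.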
